A study of Mus musculus with 2 samples.

Results

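The miR-183 cluster is a group of 3 microRNA (miRNA) genes, Mir183, Mir96 and Mir182, that lie next to each other on the minus strand of mouse chromosome 6. All 3 were found by their GENCODE symbols among the 1973 miRNA gene rows of the deposited count tables. They were measured in adrenal glands of the mouse strain B6NCrl at postnatal day 0, with no treatment and no second genotype or tissue. The series holds 2 libraries of 1 group, each from both adrenals of a single pup; the labels name pup 1 and pup 2 of the same pregnancy but give them 1 donor identifier, so the spread between them may be technical. Sex was not recorded, and the glands were taken whole, so cortex, medulla, vessels and stroma were sampled together.

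miRNAs are cut from hairpin precursors, and the mature strand guides a silencing complex to transcripts that pair with its seed, bases 2 to 8. The 3 hairpins of this cluster are known to arise from a common primary transcript that is strongly expressed in sensory cells such as photoreceptors, inner ear hair cells and olfactory neurons, and also in some epithelial, neuroendocrine and lymphoid cells. Changes in the seed of miR-96 cause progressive hearing loss in mice and humans, loss of the cluster in mice leads to retinal degeneration, and miR-182 is known to act on Foxo1 in activated helper T cells.

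The mature sequences are shown first because the seeds decide which transcripts each miRNA can pair with and because nearly identical sequences could exchange reads. They come from RefSeq on GRCm38.p6, where all 3 genes were matched, and are written 5′ to 3′ with the seed in capitals. The arms from the 5′ side of the hairpins are the ones for which the cluster is known.
miR-183-5p: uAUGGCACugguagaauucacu
miR-96-5p: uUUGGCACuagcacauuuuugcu
miR-182-5p: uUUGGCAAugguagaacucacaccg
miR-1271-5p: cUUGGCACcugguaagcacuca

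The 3 seeds were similar but not the same. miR-182-5p and miR-96-5p had bases 2 to 7 in common and differed within the seed by A8C, with the base of miR-182-5p first and positions counted from 1 at the 5′ end. miR-96-5p and miR-183-5p differed within the seed by U2A, with the base of miR-96-5p first. miR-182-5p and miR-183-5p differed at both positions, U2A and A8C, and had 5 of the 7 seed bases in common. Over the whole mature sequence, seed included, the closest pair was another one, since miR-182-5p and miR-183-5p were identical at 18 of 22 positions, whereas miR-182-5p and miR-96-5p matched at 12 of 23 and miR-96-5p and miR-183-5p at 13 of 22. Among 1738 mature miRNAs of the RefSeq table, the full seed of miR-96-5p was held by 1 other, miR-1271-5p, and the seeds of miR-182-5p and miR-183-5p by none. Gm24195, the gene of miR-1271 on chromosome 13, had 0 counts in both libraries, which by a floor of 3 counts allows up to 0.902 in pup 2 and 2.65 in pup 1 as counts per 1000000 (CPM).

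The hairpins are shown with both mature arms in capitals, because the counts were made per hairpin gene and cannot tell the arms apart.
Mir183: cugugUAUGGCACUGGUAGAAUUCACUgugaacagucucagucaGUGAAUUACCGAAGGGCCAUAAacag
Mir96: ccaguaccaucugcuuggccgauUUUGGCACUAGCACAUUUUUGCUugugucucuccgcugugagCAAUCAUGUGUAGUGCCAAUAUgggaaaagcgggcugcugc
Mir182: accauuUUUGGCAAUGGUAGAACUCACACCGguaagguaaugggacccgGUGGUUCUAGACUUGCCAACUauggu

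On mm10, Mir183 (ENSMUSG00000065619.2) lies at chr6:30169668-30169737, Mir96 (ENSMUSG00000065586.1) at chr6:30169446-30169551 and Mir182 (ENSMUSG00000076361.1) at chr6:30165918-30165992, in this order along the direction of transcription. Between Mir183 and Mir96 lie 116 bases, and between Mir96 and Mir182 lie 3453 bases. No other gene of GENCODE M21 overlaps the span of 3820 bases, so the hairpins have no annotated host exon or intron. The nearest of the flanking genes examined was Rncr4, a long noncoding RNA on the plus strand whose start lies 3155 bases beyond Mir183 and which is known in mouse retina for promoting the processing of this cluster. The protein-coding genes on either side are Nrf1, a transcription factor gene 12459 bases from Mir182, and Ube2h, a ubiquitin-conjugating enzyme gene 41551 bases from Mir183. None of the 6 mature arms of the cluster was found in a second hairpin among 1005 of the RefSeq table. The closest match of miR-183-5p in another hairpin was in Mir182, with 4 mismatches, and that of miR-182-5p was in Mir183, with 6 mismatches. A search of the whole genome was not made here.

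All 3 members were detected in both newborn adrenal libraries, Mir182 and Mir183 at similar levels and Mir96 several times lower. Levels are given as CPM, the reads on the strand of the gene per 1000000 such reads over all miRNA genes, which numbered 3327743 in pup 2 and 1131762 in pup 1. Mature miRNAs have nearly the same length, so no division by length was made, and the preference of the library chemistry for certain sequences was not measured. In whole glands, fewer cells of a type and less RNA per cell cannot be told apart.

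Mir183 had 923 reads or 277 CPM in pup 2 (95% counting interval 260 to 296) and 354 reads or 313 CPM in pup 1 (281 to 347). Its mean was 295 ± 25.0 CPM (SD, n = 2), which placed it 136th of the 635 miRNA genes with a count in at least 1 library. Mir183 was thus slightly lower in pup 2, and the counting intervals of the pups overlapped.

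Mir182 had 1035 reads or 311 CPM in pup 2 (292 to 331) and 274 reads or 242 CPM in pup 1 (214 to 273). Its mean was 277 ± 48.7 CPM (SD, n = 2), at rank 141. Mir182 went the other way from Mir183, with the higher level in pup 2 and counting intervals that did not overlap.

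Mir96 had 235 reads or 70.6 CPM in pup 2 (61.9 to 80.2) and 61 reads or 53.9 CPM in pup 1 (41.2 to 69.2). Its mean was 62.3 ± 11.8 CPM (SD, n = 2), at rank 209. Mir96 was the lowest member in both libraries, and its intervals overlapped between the pups.

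**Figure D1:**
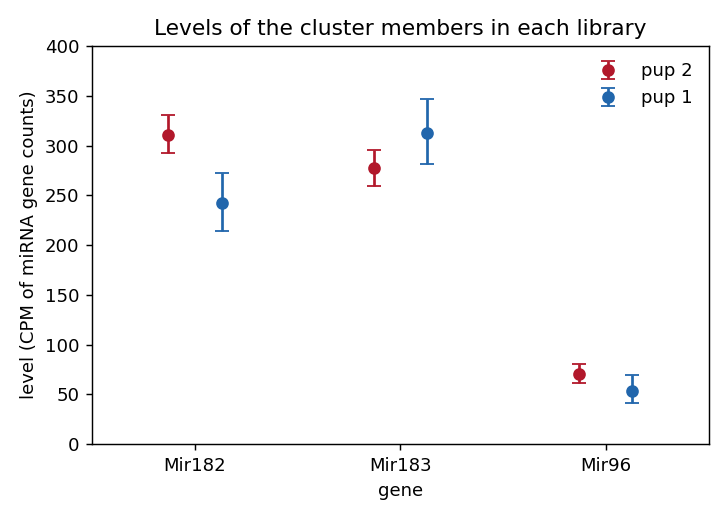
Level of each cluster member in CPM (vertical axis, linear from 0) for pup 2 (red) and pup 1 (blue), 1 point per library, with bars for the 95% counting interval. Mir182 stood at 311 and 242 CPM and Mir183 at 277 and 313 CPM in pup 2 and pup 1, so that their order differed between the libraries, while Mir96 was below both at 70.6 and 53.9 CPM.

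Together the members held 2193 reads in pup 2 and 689 in pup 1. This was 659 CPM (632 to 687) in pup 2 and 609 CPM (564 to 656) in pup 1, or 0.0634% ± 0.00355 of all miRNA gene counts (SD, n = 2). The ratio of the summed level in pup 2 to that in pup 1 was 1.08 (95% counting interval 0.993 to 1.18), or 0.11 on the log2 scale. Mir182 made up 47.2% of the cluster's reads in pup 2 (exact Clopper-Pearson 95% interval 45.1 to 49.3) and 39.8% in pup 1 (36.1 to 43.5). Mir183 made up 42.1% in pup 2 (40.0 to 44.2) and 51.4% in pup 1 (47.6 to 55.2). Mir96 made up 10.7% in pup 2 (9.45 to 12.1) and 8.85% in pup 1 (6.84 to 11.2). The leading member was thus Mir182 in pup 2 and Mir183 in pup 1.

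Ratios within a library do not depend on its total. The measured ratio of Mir96 to Mir182 was nearly the same in both libraries, whereas that of Mir182 to Mir183 was not. The ratio of Mir96 to Mir182 was 0.227 in pup 2 (exact conditional 95% interval 0.196 to 0.262) and 0.223 in pup 1 (0.166 to 0.295), a difference of 0.02 on the log2 scale. The ratio of Mir182 to Mir183 was 1.12 in pup 2 (1.03 to 1.23) and 0.774 in pup 1 (0.659 to 0.909), a difference of 0.53 on the log2 scale. The intervals of this pair lay on opposite sides of 1 and did not overlap. The ratio of Mir96 to Mir183 was 0.255 in pup 2 (0.220 to 0.294) and 0.172 in pup 1 (0.129 to 0.227), with intervals that overlapped narrowly. Mir96 had 61 reads in pup 1, and the interval of 0.166 to 0.295 there leaves room for a change of its ratio to Mir182. Mir96 and Mir182 are separated by 3453 bases, while Mir96 and Mir183 are 116 bases apart. The intervals cover counting error only, because PCR copies of a molecule cannot be recognised without molecular identifiers, and 1 library per pup leaves no replicate check on these differences.

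**Figure D2:**
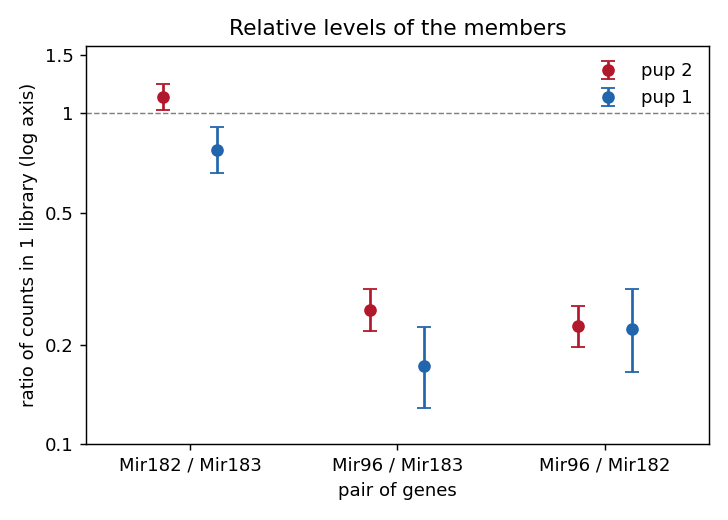
Ratio of counts between pairs of members within a library (vertical log axis) for pup 2 (red) and pup 1 (blue), with bars for the exact conditional 95% interval and a dashed line at 1. Mir96 over Mir182 was 0.227 and 0.223 in pup 2 and pup 1, whereas Mir182 over Mir183 was 1.12 and 0.774.

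The libraries of pup 2 and pup 1 were compared gene by gene to see whether the cluster differed between samples of the same age. A difference was counted from 2-fold upward on log2 ratios of pup 2 over pup 1, to which 1 CPM had been added as a prior, and genes whose mean was below 10 CPM were left out. Of the 284 remaining genes, 15 or 5.28% passed 2-fold, and 0 of the 3 members did. The ratio of pup 2 to pup 1 was 1.31 for Mir96 (0.985 to 1.77), a log2 ratio of 0.38. It was 1.28 for Mir182 (1.12 to 1.47), a log2 ratio of 0.36, and 0.887 for Mir183 (0.784 to 1.01), a log2 ratio of -0.17. The median log2 ratio of all 284 genes was 0.08, with quartiles at -0.22 and 0.36, so Mir183 and Mir182 lay between the quartiles and Mir96 just above the upper one. With a single library a pup, no p-value was computed.

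**Figure D3:**
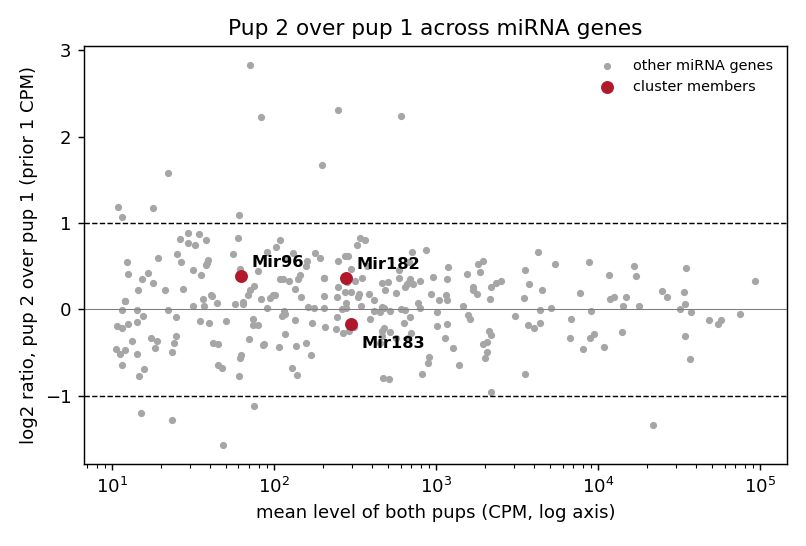
Log2 ratio of pup 2 over pup 1 (vertical axis, prior of 1 CPM) against the mean level of both pups in CPM (horizontal log axis) for the 284 miRNA genes that averaged 10 CPM or more; dashed lines mark 2-fold. The members (red) lie at 0.38 for Mir96, 0.36 for Mir182 and -0.17 for Mir183, between the lines.

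Marker miRNAs of the cell types that whole glands can hold were measured in the same libraries, and their part in the member ratios was not tested. Of the 7 epithelial genes, all had a count and 5 averaged 10 CPM or more. They summed to 1309 CPM in pup 2 against 947 CPM in pup 1, and 2 of the 5, Mir200b and Mir429, were at least 2-fold higher in pup 2. The skeletal muscle markers Mir206 and Mir133b together reached 412 CPM in pup 2 against 82.2 CPM in pup 1, with Mir133b at 4 and 0 counts. The endothelial Mir126a had 102288 CPM in pup 2 against 81620 CPM in pup 1, and the 3 smooth muscle and mesenchymal markers Mir143, Mir145a and Mir214 summed to 22755 CPM in pup 2 against 18263 CPM in pup 1. The hepatocyte miRNA Mir122 had 4081 CPM in pup 2 against 2979 CPM in pup 1. The red cell miRNAs Mir451a and Mir144 summed to 301 CPM in pup 2 against 281 CPM in pup 1, and the white cell miRNAs Mir223 and Mir150 to 958 CPM in pup 2 against 803 CPM in pup 1. Of these genes outside the epithelial list, only Mir206 passed 2-fold among those at 10 CPM or more.

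The genes next to each member in the order of mean levels show where it stood. Their closeness to the member follows from how they were picked. Next above Mir183 was Mir188 with 298 ± 68.2 CPM, and next below was Mir7-2 with 290 ± 35.2 CPM. Mir182 stood between Mir496a with 278 ± 2.06 CPM and Mir25 with 275 ± 10.9 CPM. Mir96 stood between Mir363 with 63.8 ± 2.80 CPM and Mir3099 with 62.1 ± 15.9 CPM (SD, n = 2 for each). The difference of 18.5 CPM between the means of Mir183 and Mir182 was less than the SD of either, while Mir96 was below both in each library.

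The gene closest to Mir183 over the 2 libraries, by the root mean square difference of log2(CPM + 1), was Mir7-2, one of the miR-7 genes of neuroendocrine cells, at 0.05. Mir7-2 had 265 CPM in pup 2 and 315 CPM in pup 1, and the next closest gene was Mir330 at 0.07. Reads that mapped to several loci were not counted, so the level of Mir7-2 may be too low. Closest to Mir182 were Mir708 at 0.04 and Mir500 at 0.08. Closest to Mir96 were Mir32 at 0.05 and Mir363 at 0.16. With 2 libraries this likeness is mostly one of level.

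The cluster was set beside lists of miRNAs known from the cell types in which it is found elsewhere, and in both libraries it summed to less than each of the 4 lists. For the sensory organ and epithelial lists 1 gene carried this, since without Mir140 the sensory organ list summed to 172 CPM in pup 2 against 121 CPM in pup 1, and without Mir203 the epithelial list to 642 CPM in pup 2 against 238 CPM in pup 1, all below the cluster. The adrenal medulla is neuroendocrine, so the neuroendocrine list also bears on the labelled tissue, but it cannot tell the adrenal from other endocrine tissue. All 4 of its genes averaged 10 CPM or more. Their sum was 33410 CPM in pup 2 against 39764 CPM in pup 1, which was 50.7 and 65.3 times the cluster in those libraries. Most of that was Mir375, a miRNA of pancreatic islets and other endocrine cells, with 30415 CPM in pup 2 against 37586 CPM in pup 1. The other leading genes were Mir7b with 2293 and 1557 CPM and Mir7-1 with 438 and 307 CPM in pup 2 and pup 1. By the reads that mapped to 1 locus only, Mir7-1 and Mir7-2 were of the same order as Mir182 and Mir183. The 3 miR-7 genes may encode the same or nearly the same mature RNA, and reads mapping to several loci were not counted.

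Of 10 measured genes on the sensory organ list, 5 had a count and 3 averaged 10 CPM or more. The list summed to 2077 CPM in pup 2 against 1799 CPM in pup 1. Mir140, best known from cartilage and also found in the inner ear, had 1905 CPM in pup 2 and 1678 CPM in pup 1. Mir204, a miRNA of retinal pigment epithelium and lens, had 128 and 76.9 CPM, and Mir194-2 had 40.0 and 30.0 CPM. The other counted genes were below that mean, Mir194-1 with 9 reads in pup 2 and 15 in pup 1, or 2.70 and 13.3 CPM, and Mir211, a relative of Mir204, with 5 reads in pup 2 and 1 in pup 1. Mir194-1 was the counted gene of the list that was lower in pup 2. Mir194-1 and Mir194-2 are numbered as copies and may lack reads that mapped to more than 1 locus. The 3 Mir124a genes and Mir9-2 and Mir9-3, of neural tissue, had 0 counts, and since their mature sequences are encoded at several loci, reads that mapped to more than 1 locus were not counted for them. The members of the cluster were thus above Mir204 in the case of Mir182 and Mir183, and below it in the case of Mir96, in both libraries.

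The epithelial list, whose sums are given above, was led by Mir203, a miRNA of stratified epithelium, with 667 CPM in pup 2 and 710 CPM in pup 1. Mir429 had 299.6 and 93.7 CPM and Mir200c had 138 and 78.6 CPM in pup 2 and pup 1, both of the miR-200 family that maintains epithelial identity. The 5 measured leukocyte genes summed to 3606 CPM in pup 2 against 3096 CPM in pup 1. They were led by Mir342 with 2363 and 1971 CPM, followed by the myeloid Mir223 with 883 and 704 CPM and Mir146 with 221 and 259 CPM. Median log2 ratios of pup 2 over pup 1 were 0.87 for the 5 epithelial genes, 0.40 for the 3 sensory organ genes, 0.13 for the 4 neuroendocrine genes and 0.06 for the 5 leukocyte genes, beside 0.08 over all 284 genes.

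**Figure D4:**
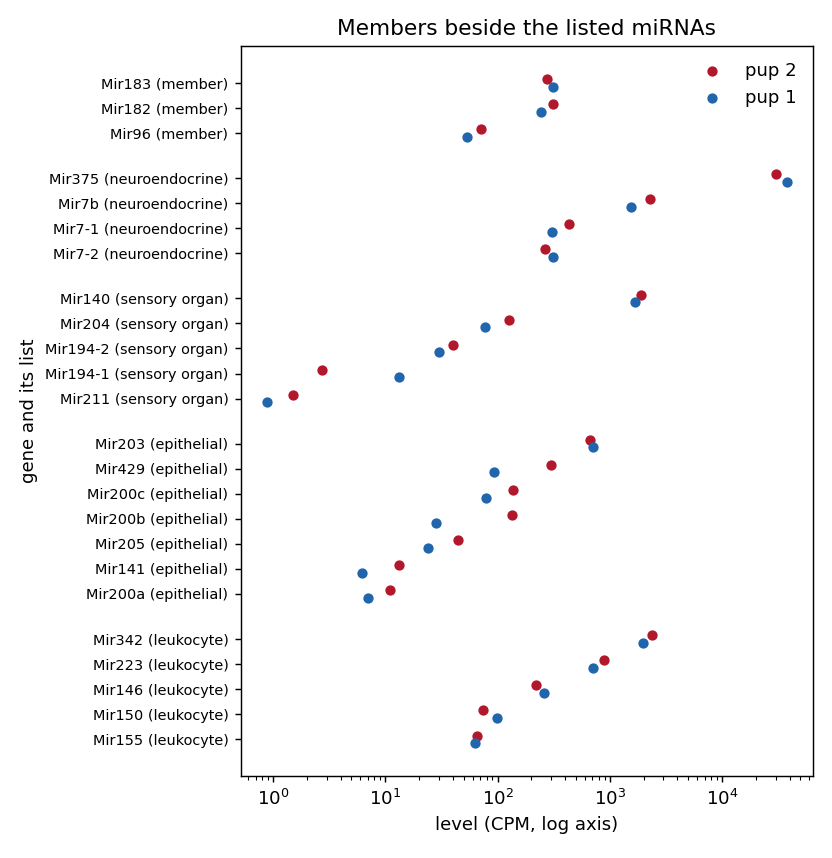
Level in CPM (horizontal log axis) of the cluster members and of each listed miRNA gene with a count, for pup 2 (red) and pup 1 (blue), 1 point per library. Mir182 and Mir183 lie near Mir7-1 and Mir7-2, whose levels may lack reads that mapped to several loci. Mir375 lies far above all of them at 30415 and 37586 CPM.

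The span of levels among the members was set against those of the other miRNA clusters of the tables, and it was close to the median of clusters with as many measured genes. Clusters were runs of 3 or more genes on the same strand with at most 10 kb between neighbours. By summed level the miR-183 cluster was the 10th of 25, between the cluster from Mir341 to Mir370 with 998 CPM and the miR-200 cluster from Mir429 to Mir200b with 288 CPM. In 13 of the 25, the miR-183 cluster among them, 3 or more genes averaged 10 CPM or more. Its highest and lowest members differed 4.74-fold in mean level, against a median of 24.1-fold and a range from 1.22-fold to 1379-fold over the 13. A span grows with the number of genes it is taken over, and among the 5 clusters with exactly 3 such genes the median was 5.26-fold, in a range from 1.22-fold to 136-fold. The span was narrower in 2 of the other clusters, Mir363 to Mir106a at 2.81-fold and Mir302b to Mir367 at 1.22-fold, and wider in 10. Only genes at 10 CPM or more entered a span, so the filter limits how wide the span of a low cluster can be. The highest gene of Mir302b to Mir367 was Mir302a at 17.4 CPM. Mir302c at 1.94 CPM and Mir367 at 0.150 CPM were left out of its span. Mir363 to Mir106a entered with 4 of its 6 genes. In 5 of the 13, a member's mature sequence also lies in another hairpin of the RefSeq table, and multi-mapped reads were not counted. In the 8 where none was found the median span was 6.06-fold. Of these, 1 was narrower than the miR-183 cluster and 6 were wider. The narrower one was Mir302b to Mir367, whose span the filter limits. However, 1 of these 8, Gm22072 to Mir669h at 5.83-fold, also holds numbered copies such as Mir467a-1 and Mir467a-2 with 0 counts. Multi-mapped reads may thus be missing from that cluster too.

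The gene with the highest level was the same in both libraries in 11 of the 13 clusters. The miR-183 cluster was 1 of the other 2, with Mir182 leading in pup 2 and Mir183 in pup 1. The other was Mir302b to Mir367, whose genes together reached 47.8 CPM in pup 2 against 48.6 CPM in pup 1. The log2 ratios of pup 2 over pup 1 spanned 0.56 among the 3 members, from -0.17 to 0.38, against a median span of 0.65 over the 13 clusters and a range from 0.32 to 1.30. The span of the cluster was the 4th smallest. Among the 5 clusters with exactly 3 such genes, it was the median, in a range from 0.32 to 0.68. These are descriptions of 2 libraries, and no test of the difference between clusters was made.

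**Figure D5:**
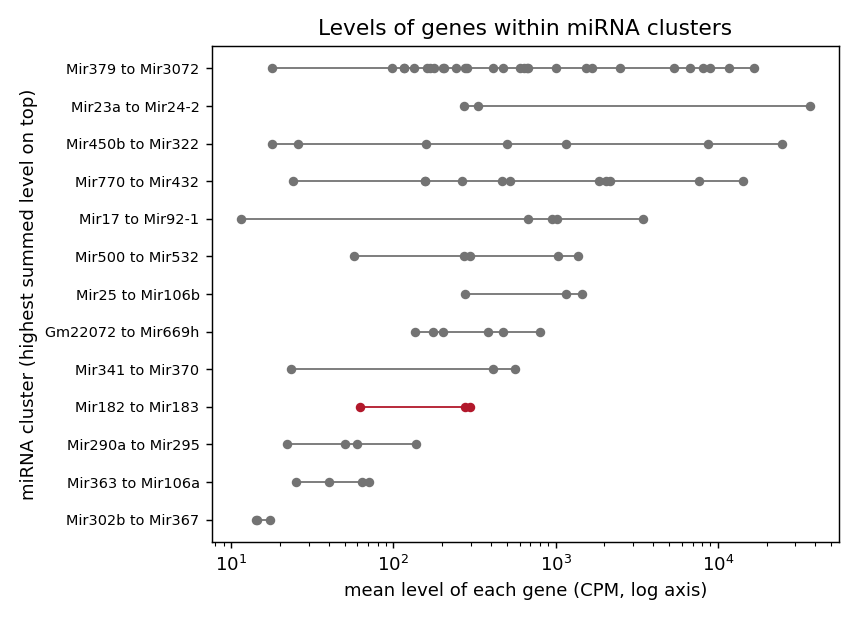
Mean level of each gene with at least 10 CPM (horizontal log axis) in the 13 miRNA clusters with 3 or more such genes, 1 row per cluster named by its first and last gene, with the highest summed level on top and a line from the lowest to the highest gene. The miR-183 cluster (red) spans 4.74-fold, with Mir182 and Mir183 close together and Mir96 below them.

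On the strand opposite to the genes, all 3 members had 0 counts in both libraries, while that column held 104740 counts in pup 2 and 39345 in pup 1 over all genes. Rncr4, which is transcribed from the other strand upstream, is not a miRNA gene and was not analysed here.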

How the data were processed

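Raw counts of reads on each miRNA gene were deposited by the authors, 1 table per library, from RNA below 30 nucleotides per the labels. The deposited sample notes name mm10 and GENCODE M4. For the aligner and the trimming, the sources used here give nothing. Multi-mapped reads (32.2% in pup 2, 34.9% in pup 1), unmapped reads (11.2%, 10.6%) and ambiguous reads (0 in both) stand in rows of their own. So do reads on no gene of their strand (3.86%, 4.03%), which can include reads on the opposite strand of a gene. All of these were left out of the totals. Of 1973 gene rows, 1894 had a GENCODE M21 symbol and the 79 others held 0 counts.

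CPM, log2 ratios with a prior of 1 CPM, and exact counting intervals (95%, Poisson for levels, Clopper-Pearson for shares, conditional binomial for ratios) were computed with Python 3.11.15 and scipy 1.17.1. TMM (edgeR 4.0.16) and median-of-ratios scaling (DESeq2 1.42.0) were alternatives, with other priors, filters, columns and denominators. Named genes were the members, their nearest neighbours in level, the genes closest to them over the libraries, seed relatives, and the leading 3 genes of 4 lists. The members, lists and rules were chosen with earlier results of these data known. Other genes named were chosen after their values were seen. Mir9-1 and Mir142 matched no row by symbol.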

Additional observations from a re-analysis of the deposited data

Results flagged for a closer look

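In the opposite-strand column, which the comparisons above do not use, Mir142b held 2852 counts in pup 2 and 565 in pup 1, above the floor of 3 counts, beside 0 counts on its own strand in both libraries. Mir142, the leukocyte miRNA on the list used above, matched no row by symbol, and the source of these reads was not tested.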

How the results depend on the processing

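Of the 61 alternatives run over 11 results, 54 left the value within the spread between pups, its counting interval or 1.5 times the count. The 54 include every run with 1 library left out. With 2 libraries such a run always stays within the SD between pups, so it was no check. With all reads of the tables as the denominator, mean levels were 152 CPM for Mir183, 32.2 CPM for Mir96, 143 CPM for Mir182 and 327 CPM for the cluster, by construction of the larger total. The number of genes at least 2-fold different between the pups was 85 with no filter on low levels and 4 at a mean of at least 100 CPM, against 15 at 10 CPM. TMM scaling moved the median log2 ratio of all genes by 0.10 and DESeq2 scaling by 0.03. The log2 ratio of pup 2 over pup 1 stayed below 0 for Mir183, from -0.17 to -0.07, and above 0 for Mir182, from 0.35 to 0.47, and for Mir96, from 0.36 to 0.49, under every scaling, denominator, column and prior run. With 1 library left out, levels ran from 277 to 313 CPM for Mir183, from 53.9 to 70.6 CPM for Mir96, from 242 to 311 CPM for Mir182 and from 609 to 659 CPM for the cluster. The log2 ratio of Mir96 over Mir183 then ran from -2.51 to -1.96, and that of Mir182 over Mir183 changed sign, with 0.16 in pup 2 alone and -0.37 in pup 1 alone, so its mean of -0.10 has no stable direction. The comparison of cluster spans without the clusters in which a multi-locus gene was found was chosen after seeing the data. It left 1 cluster narrower than the miR-183 cluster, against 2 among all. That 1 was Mir302b to Mir367, whose span is limited by the filter at 10 CPM. No paired analysis was possible because the series has a single group. Depth limits Mir96 most, which rests on 61 reads in pup 1.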
